A study of Mus musculus with 16 samples.

Results

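The transcripts of 9 mouse genes for writing and reading 5-methylcytosine (m5C) in RNA were followed: the methyltransferases Trdmt1, Nsun2, Nsun3, Nsun4, Nsun5, Nsun6 and Nop2, and the m5C-binding proteins Alyref and Ybx1. They were found by gene symbol among the 15330 RefSeq mRNAs on which the long-RNA reads had been placed, and each of the 9 genes had 1 reference there. The cells were embryonic stem cells of the J1 background, either Dnmt2-/- or wild type (3 libraries each); Dnmt2 is the older name of the enzyme encoded by Trdmt1. Cells of both genotypes had been cultured on primary mouse embryonic fibroblasts, which were then depleted by their faster attachment to a dish. The labels give no other allele or treatment, and they state neither how the allele was made nor whether the replicates were separate cultures or clones. P-values therefore measure the spread between these libraries, which may be technical. These 6 of the 16 libraries of the series held RNA over 200 nt, depleted of rRNA, fragmented and treated with bisulfite.

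m5C is made by enzymes that differ in the RNAs they recognise. Trdmt1, Nsun2 and Nsun6 modify cytoplasmic tRNAs, Nsun3 and Nsun4 work in mitochondria, and Nsun5 and Nop2 modify the large ribosomal RNA in the nucleolus. Alyref, an adaptor of nuclear mRNA export, and Ybx1, a cold-shock-domain protein that coats cytoplasmic mRNA, bind mRNAs carrying the mark. Bisulfite converts unmethylated cytosine and spares m5C, so each library gives both the coverage of every cytosine and the percentage of its reads that stayed unconverted.

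The start of the Trdmt1 transcript is shown because it lies in the only stretch of this mRNA that the Dnmt2-/- libraries covered. The first line gives transcript positions 11 to 40 (GRCm38.p6, chr2:13544625-13544654, minus strand), with the 8 cytosines in capitals, all of which were listed in a Dnmt2-/- library; the first ATG begins at position 33. The second gives the 250 bases before the annotated start (GRCm38.p6, chr2:13544665-13544914, minus strand), with the 9 CG dinucleotides in capitals. Both were taken from RefSeq promoter windows of that build.
Trdmt1 transcript start: CCgCggtCgCggttgCgagaggatggaaCC
Trdmt1 upstream bases: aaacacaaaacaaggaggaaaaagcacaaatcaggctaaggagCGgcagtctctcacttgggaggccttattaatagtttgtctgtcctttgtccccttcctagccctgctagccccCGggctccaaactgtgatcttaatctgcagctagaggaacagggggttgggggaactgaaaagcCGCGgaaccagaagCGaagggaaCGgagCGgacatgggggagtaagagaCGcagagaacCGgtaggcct
On neither strand did the upstream bases hold the TATA-box letters TATAAA, which occur in 12.4% of the 32851 mouse promoter windows of the same length. They likewise held no CCAAT, a motif present in 33.8% of the windows, and no GC box, written GGGCGG, which is present in 32.7%. As many CG dinucleotides or more are found in 40.3% of those windows. All 11 cytosines listed within the first 50 bases of the transcript fell on a C of the RefSeq sequence.

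Trdmt1 (NM_010067.4, chromosome 2), the targeted gene, methylates a cytosine in the anticodon loop of a few tRNAs. Its scaled mean coverage, the mean read depth over the transcript's cytosines divided by a library scaling factor, was 1.30, 0.458 and 0.978 in the Dnmt2-/- libraries, against 4.32, 3.47 and 2.93 in the wild-type libraries. All 3 Dnmt2-/- values lay below all 3 wild-type values, and Trdmt1 was the only gene of the 9 whose groups did not overlap; groups failed to overlap in that direction for 5.98% of the 10949 transcripts tested, and in the other for 6.13%. Without chromosome 8, described with the related genes, the share was 2.98%. The log2 difference was -1.56 (SE 0.363, 95% confidence interval -2.40 to -0.72), with an unadjusted p of 0.00273 and an adjusted p of 0.370 (limma, Benjamini-Hochberg over all transcripts), so the whole transcript did not pass. The size depends on how unlisted cytosines are counted: at 2 reads each the log2 difference was -0.69, and with a pseudocount of 2 it was -0.94. DESeq2 on coverage summed over cytosines, which counts a read several times, gave -1.98 and an adjusted p of 0.00853, while 2.28% of its tested transcripts were called lower. In bulk RNA, fewer cells of a type and less RNA per cell cannot be told apart.

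The difference was not spread evenly along the Trdmt1 mRNA. Over the 39 cytosines before position 200, scaled mean coverage was 6.44, 2.26 and 4.84 in Dnmt2-/- cells and 5.97, 6.24 and 3.33 in wild-type cells. These ranges overlapped, with means of 4.51 ± 2.11 in Dnmt2-/- cells and 5.18 ± 1.61 in wild-type cells (SD, n = 3 each; exact permutation test, two-sided p = 0.7). From position 200 on, 154 cytosines were listed in at least 1 library; the Dnmt2-/- libraries listed none of them, and scaled mean coverage in wild type was 3.90, 2.77 and 2.82. The groups were apart there, and the exact permutation test gave a two-sided p of 0.1, the smallest that 3 against 3 libraries allow. Position 200 came from an earlier look at the same data and lies past the last cytosine listed in any Dnmt2-/- library. The Dnmt2-/- values of 0 followed from that choice, so the separation and its p-value describe the pattern and do not test it.

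Counts of reads bound how little was left downstream. A cytosine enters a deposited file only with 3 reads or more, so an unlisted one may still have had up to 2. With every unlisted cytosine set at 2 reads, the downstream level became 1.70, 1.88 and 1.59 in Dnmt2-/- libraries, against 4.76, 2.97 and 6.26 in wild-type libraries, and the groups remained apart. The highest read depth at any downstream cytosine was 10, 17 and 5 in the 3 wild-type libraries. Of 6112 transcripts that listed at least as many cytosines from position 200 on as Trdmt1 did in each wild-type library, 1 (0.0164%) had none listed in any Dnmt2-/- library, and that was Trdmt1 itself. The wild-type filter and the position both came from the Trdmt1 values, so this share is a description and not a chance rate. The depth cannot show whether a low level of downstream RNA was present.

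The end of coverage in Dnmt2-/- libraries could be placed only loosely. The last cytosine listed lay at position 142, 84 and 142 in the Dnmt2-/- libraries. Between positions 148 and 193 there were 7 cytosines, of which the Dnmt2-/- libraries listed 0, 0 and 0 and the wild-type libraries 7, 1 and 0. The wild-type libraries were themselves thin here, so an end of Dnmt2-/- coverage in this interval would rest mainly on wild-type replicate 1. From position 250 to 499 the wild-type libraries listed 0, 14 and 5 of 17 cytosines. All 3 listed cytosines again only in the window from 500 to 749. The values therefore do not fix where between positions 142 and 500 the Dnmt2-/- coverage ended. Exon boundaries of the transcript were not used here.

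From position 250 on, coverage was read in windows of 250 nt, in all of which the Dnmt2-/- libraries listed 0 cytosines. Wild-type scaled mean coverage was 5.19, 4.63 and 4.84 from position 500 to 749, then 5.12, 2.76 and 2.81 from 750 to 999, and 4.50, 2.89 and 3.46 from 1000 to 1249. These 3 windows held 113 of the 154 downstream cytosines and were covered in every wild-type library. Past position 1249 each window with a listed cytosine was covered in 1 wild-type library. The last cytosine listed lay at position 2439, 1973 and 1245 in wild-type replicates 1, 2 and 3.

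**Figure D1:**
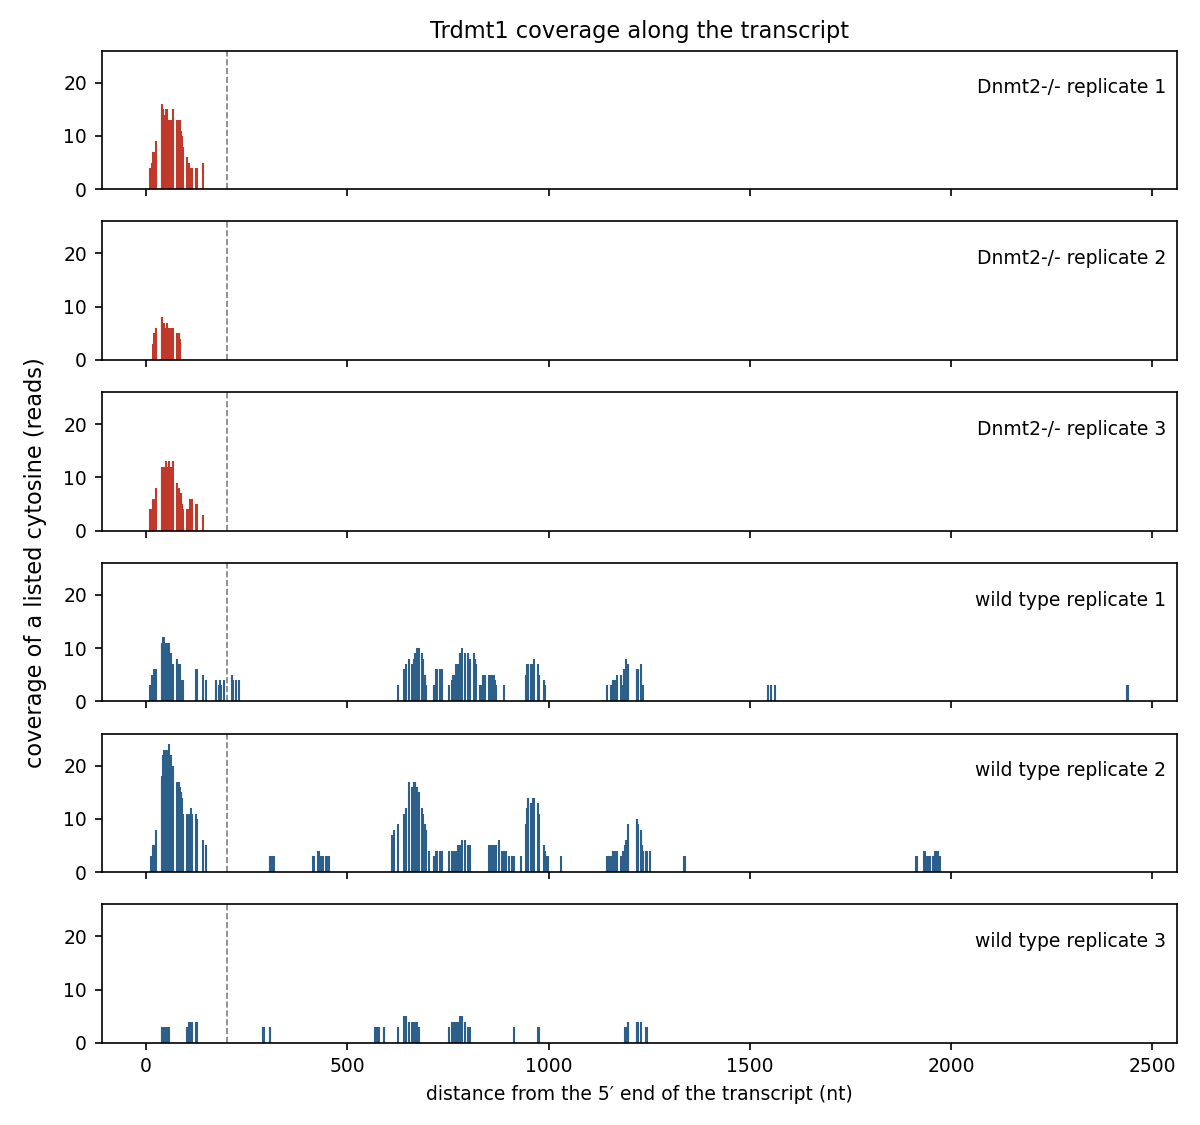
Read depth at each listed cytosine of the Trdmt1 mRNA against its distance from the 5′ end (nt), for the 3 Dnmt2-/- libraries above the 3 wild-type libraries; the dashed line marks position 200. The Dnmt2-/- libraries reach depths of 16, 8 and 13 reads before the line and list no cytosine after it, where the wild-type libraries reach 10, 17 and 5 reads.

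The levels of marker genes for feeder, stem and early-lineage cells are given beside these results. The summed level of feeder-fibroblast markers was 67.6 to 81.2 in Dnmt2-/- libraries and 122 to 252 in wild-type libraries. The 7 of the 10 markers that were listed all had a negative log2 difference, as had 4920 of the 10949 transcripts tested. Of the 7, 0 passed, and Lum, Pdgfrb and Postn were not listed. Vim, a filament protein of mesenchymal cells, was at 36.1 ± 1.40 in Dnmt2-/- cells and 118 ± 53.9 in wild-type cells (SD, n = 3 each; limma with Benjamini-Hochberg adjustment, adjusted p = 0.346). Vim made up most of the difference between the summed feeder levels. The next highest feeder marker, Fn1, overlapped between genotypes, at 29.0 ± 6.58 in Dnmt2-/- cells and 33.2 ± 6.60 in wild-type cells. Stem-cell markers, all 10 of them listed, summed to 2082 to 2785 in Dnmt2-/- cells and 1825 to 2200 in wild-type cells; without Dppa5a, which carries most of the sum, they came to 803 to 991 in Dnmt2-/- cells and 834 to 956 in wild-type cells. Early-lineage markers, 7 of 10 listed, summed to 8.36 to 15.7 in Dnmt2-/- cells and 12.2 to 26.4 in wild-type cells. An unadjusted limma p under 0.05 was reached by 3 of 10 stem-cell, 2 of 7 feeder and 2 of 4 early-lineage transcripts tested. The share over all transcripts was 7.11%. The stem-cell ones, of Nanog, Fgf4 and Dppa5a, were higher in Dnmt2-/- cells. Those of Vim, Col1a2, Pax6 and Sox1 (chromosome 8) were lower. The part of feeder RNA in the coverage of Trdmt1 or of the other 8 genes was not tested.

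The whole-transcript test of genotype gave no call among the 9. In the limma fit 8 of the 9 could be tested, Nsun6 being below the minimum mean coverage of 1, and 0 of the 8 passed an adjusted p of 0.05; the same was true of all 10949 transcripts (0.0%). At an unadjusted p under 0.05 there was 1 of the 8, Trdmt1, against 7.11% of all transcripts and 4.34% of those off chromosome 8. The median log2 difference over the 8 was 0.08, beside 0.03 over all transcripts.

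**Figure D2:**
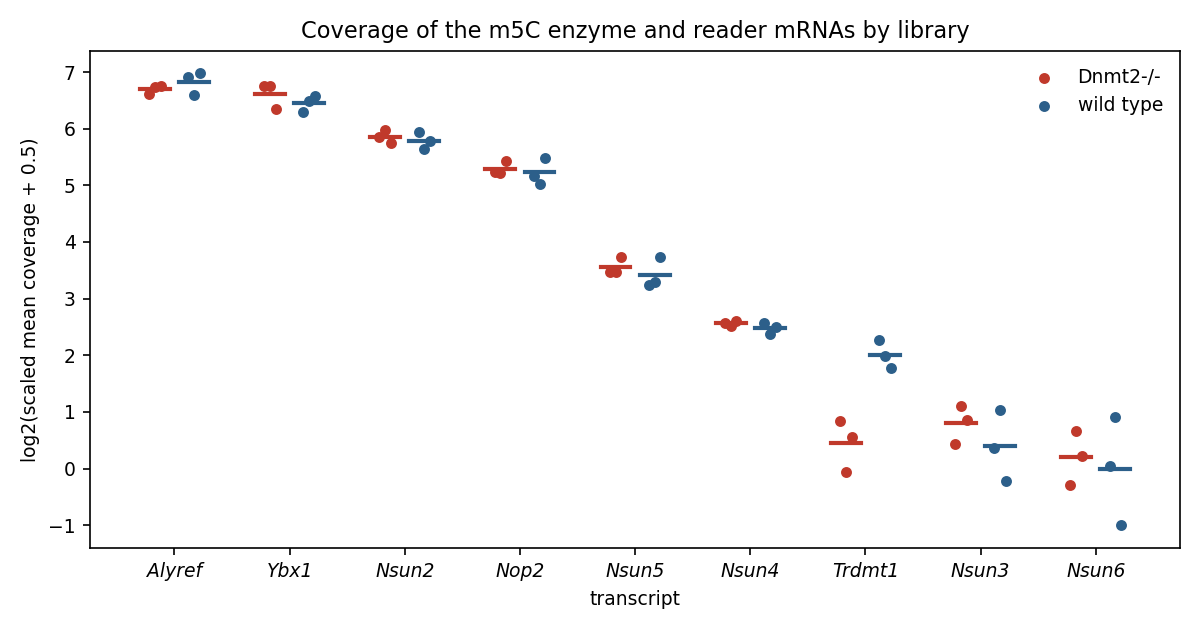
Scaled mean coverage of each transcript on a log2 scale with a pseudocount of 0.5, 1 point per library, Dnmt2-/- left of wild type; lines are means. Trdmt1 is the transcript whose groups lie apart, at 0.458 to 1.30 in Dnmt2-/- and 2.93 to 4.32 in wild type before the log.

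Levels differed far more between genes than between genotypes. Scaled coverage per cytosine is a level per length, and its mean over the 6 libraries ran in the order Alyref (108.8), Ybx1 (92.9), Nsun2 (56.2), Nop2 (38.0), Nsun5 (10.8), Nsun4 (5.26), Trdmt1 (2.24), Nsun3 (1.09) and Nsun6 (0.665). The ranges over the 6 libraries overlapped for Alyref and Ybx1, for Trdmt1 and Nsun3, and for Nsun3 and Nsun6, and were apart for the other 5 of the 8 neighbouring pairs. Alyref lay above 97.3% of the tested transcripts, Nop2 above 91.4%, Nsun4 above 47.6% and Nsun3 above 2.28%.

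Among the tRNA enzymes, Nsun2 (NM_145354.5, chromosome 13), which methylates many tRNAs and some mRNAs, had scaled mean coverage of 57.2, 62.4 and 53.2 in Dnmt2-/- cells and 60.8, 49.3 and 54.3 in wild-type cells. The groups overlapped, with a log2 difference of 0.07 (95% confidence interval -0.22 to 0.37; limma adjusted p = 0.988). Nsun6 (NM_001165942.1, chromosome 2), which acts on the acceptor stem of a few tRNAs, was covered at only 19 cytosines and stood at 0.314, 1.09 and 0.668 in Dnmt2-/- cells and 0.533, 1.39 and 0 in wild-type cells. Wild-type replicate 3, the shallowest library, listed none of its cytosines, and no difference was detectable at this depth.

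For the mitochondrial enzymes, Nsun4 (NM_028142.4, chromosome 4), which modifies the small mitochondrial rRNA, had scaled mean coverage of 5.46, 5.25 and 5.57 in Dnmt2-/- cells and 5.42, 4.69 and 5.15 in wild-type cells. It varied least of the 9, its highest library standing 1.19 times above its lowest, and its log2 difference was 0.09 (95% confidence interval -0.27 to 0.44; limma adjusted p = 0.988). Nsun3 (NM_178925.3, chromosome 16), which starts the modification of the wobble cytosine of mitochondrial tRNA-Met, was at 0.844, 1.65 and 1.31 in Dnmt2-/- cells and 0.792, 1.56 and 0.360 in wild-type cells. These overlapping values left a log2 difference of 0.40 with a wide interval, -0.93 to 1.73 (limma adjusted p = 0.984).

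Of the nucleolar enzymes, Nop2 (NM_138747.2, chromosome 6), also needed for assembly of the large ribosomal subunit, had scaled mean coverage of 37.3, 36.7 and 42.5 in Dnmt2-/- cells and 35.5, 32.1 and 44.1 in wild-type cells. The wild-type range contained all 3 Dnmt2-/- values, and the log2 difference was 0.07 (95% confidence interval -0.27 to 0.41; limma adjusted p = 0.990). Nsun5 (NM_145414.2, chromosome 5) was at 10.5, 10.5 and 12.8 in Dnmt2-/- cells and 8.92, 9.26 and 12.9 in wild-type cells. The highest library of both genotypes was replicate 3, and the log2 difference was 0.13 (95% confidence interval -0.28 to 0.54; limma adjusted p = 0.983).

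The 2 reader transcripts were the most abundant. Alyref (NM_011568.1, chromosome 11) had scaled mean coverage of 97.7, 105.9 and 107.0 in Dnmt2-/- cells and 119.9, 96.7 and 125.4 in wild-type cells. The Dnmt2-/- values fell inside the wild-type range, and the log2 difference was -0.13 (95% confidence interval -0.45 to 0.19; limma adjusted p = 0.974). Ybx1 (NM_011732.2, chromosome 4) was at 107.6, 107.4 and 81.1 in Dnmt2-/- cells and 77.5, 89.1 and 94.9 in wild-type cells. Dnmt2-/- replicates 1 and 2 were the highest and replicate 3 lay among the wild-type values, with a log2 difference of 0.17 (95% confidence interval -0.19 to 0.53; limma adjusted p = 0.963). How reads shared with related gene copies were placed is not given in the sources used here, so the levels of Alyref and Ybx1, which have such relatives, are less certain.

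**Figure D3:**
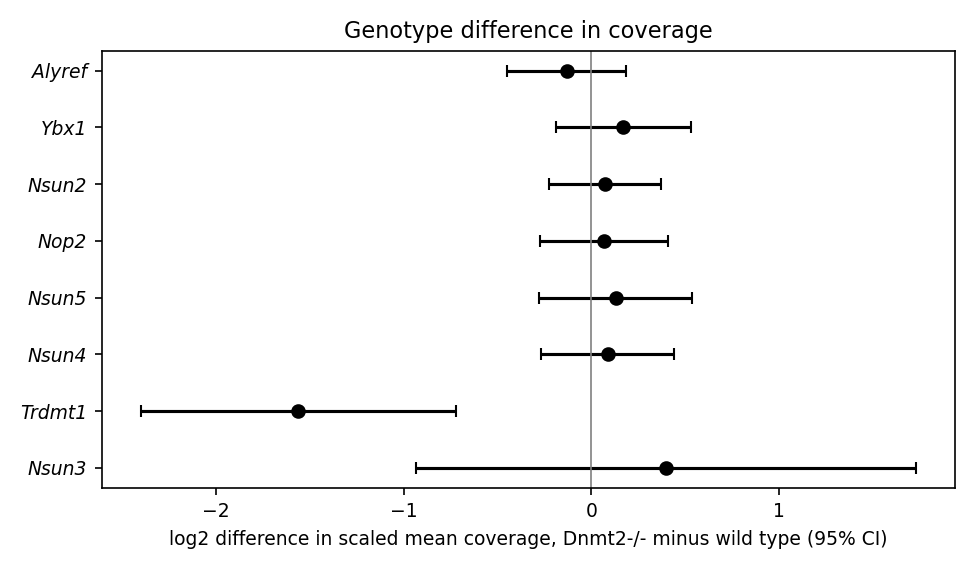
Log2 difference in scaled mean coverage, Dnmt2-/- minus wild type, with its 95% confidence interval, for the 8 transcripts tested. The interval of Trdmt1 runs from -2.40 to -0.72, and the other 7 intervals include 0.

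The position profile was set out in 10 bins of equal length from the first to the last covered cytosine, and for the 6 well covered transcripts the shapes were much the same in both genotypes. Nsun2 was highest in bin 2, at 118 ± 6.99 in Dnmt2-/- cells and 109 ± 21.4 in wild-type cells (SD, n = 3 each). It then dropped steeply near its 3′ end: scaled mean coverage before position 3018 was 72.2 ± 5.99 in Dnmt2-/- cells and 68.7 ± 7.38 in wild-type cells, and from there on it was 1.56 ± 0.944 in Dnmt2-/- cells and 1.57 ± 0.873 in wild-type cells. In single libraries the drop was 25.5 to 93.7-fold in Dnmt2-/- cells and 24.2 to 79.4-fold in wild-type cells, so its size overlapped between genotypes.

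In Ybx1 coverage fell over several bins. Bins 5, 6 and 7 were at 136, 44.8 and 8.53 in Dnmt2-/- cells and 114, 40.9 and 5.42 in wild-type cells (means of 3). Bin 1 was at 216, 201 and 94.6 in Dnmt2-/- libraries and 124, 133 and 128 in wild-type libraries. Before position 1285 the scaled mean coverage of Ybx1 was 131 ± 20.5 in Dnmt2-/- cells and 116 ± 11.8 in wild-type cells (SD, n = 3 each). From there to position 2135 it was 3.72 ± 0.386 in Dnmt2-/- cells and 3.22 ± 0.830 in wild-type cells. The ratio of these means was 25.8 to 41.3-fold in the Dnmt2-/- libraries and 28.3 to 44.4-fold in the wild-type libraries. It spans the whole decline and is not a step at position 1285. Both dividing positions were placed at the edge of a bin after the profiles were seen. The references of Nsun2 and Ybx1 thus extend well past the stretch that carried most of the reads, and their whole-transcript means understate the level over the covered stretch.

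Alyref peaked in bin 4, at 229 ± 22.9 in Dnmt2-/- cells and 244 ± 43.5 in wild-type cells, and had a trough in bin 9, positions 892 to 1002, at 2.12 ± 0.705 in Dnmt2-/- cells and 2.47 ± 2.46 in wild-type cells (SD, n = 3 each). Coverage returned in bin 10, to 71.4 ± 2.51 in Dnmt2-/- cells and 78.6 ± 17.1 in wild-type cells. Nop2 was the most even of the 6 well covered transcripts, with 4.73-fold between its highest and lowest bins. Nsun5 was highest in bin 3, at 27.2 ± 8.69 in Dnmt2-/- cells and 23.4 ± 5.07 in wild-type cells, and Nsun4 in bin 1, at 8.54 ± 0.693 in Dnmt2-/- cells and 8.77 ± 2.63 in wild-type cells. In bin 5 of Nsun5 the groups did not overlap, at 5.61, 6.79 and 5.45 in Dnmt2-/- libraries and 2.75, 4.70 and 4.06 in wild-type libraries. It was the only such bin of the 6 transcripts. Single bins were not tested.

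**Figure D4:**
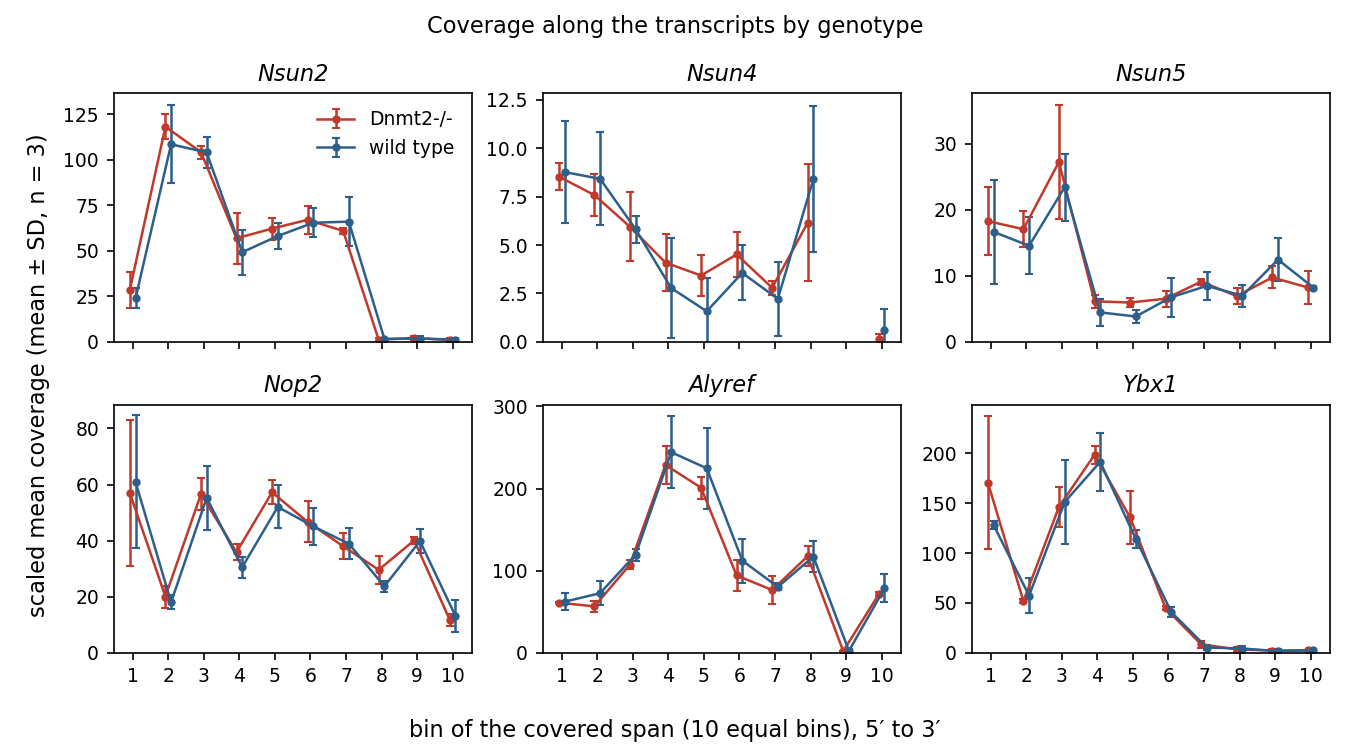
Scaled mean coverage (mean ± SD, n = 3 libraries) in 10 equal bins of the covered span, 5′ to 3′, in Dnmt2-/- and wild-type cells, for the 6 well covered transcripts; a bin with no listed cytosine is left blank. The genotypes follow each other in most bins. In bin 1 of Ybx1 the Dnmt2-/- libraries spread widely, and in bin 5 of Nsun5 the groups lie apart. Coverage steps down near the 3′ end of Nsun2, falls over several bins in Ybx1 and has a trough in bin 9 of Alyref.

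The profile was tested as the log2 ratio of coverage on the 3′ side to that on the 5′ side of the middle of the span. No member passed (0 of 8; 0.0% of 10007 transcripts passed, and 2.58% had an unadjusted p under 0.05). Nsun5 had the smallest p, 0.140 unadjusted by limma: its ratio differed by -0.34 (SE 0.201), its 5′ side being at 14.5 ± 2.68 in Dnmt2-/- cells and 12.1 ± 3.49 in wild-type cells. This test is insensitive: in data simulated at the mean levels of these libraries, with a fixed spread, it recovered 19 of 100 transcripts whose ratio was changed 4-fold. For Trdmt1, whose middle lies at position 1225, scaled mean coverage on the 5′ side was 1.05 in Dnmt2-/- cells and 3.93 in wild-type cells, and on the 3′ side 0 in Dnmt2-/- cells and 1.30 in wild-type cells (means of 3). Its difference in ratio was -0.28 (limma adjusted p = 0.9998), a value set by the pseudocount: it was -1.88 with 0.1 and 0.25 with 2.

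Non-conversion of these mRNAs was then examined, the mark being read on the transcripts of its own enzymes. Pooled over a transcript, its mean over the 3 libraries was between 1.61% and 2.22% in Dnmt2-/- cells for the 6 transcripts deep enough to test. In wild-type cells that mean was between 1.37% and 2.09%. Single libraries ran from 1.29% to 2.47% in Dnmt2-/- cells and from 0.878% to 2.44% in wild-type cells. The means were close to the library background of 1.77%, 1.76% and 1.42% in Dnmt2-/- libraries and 1.59%, 1.45% and 1.50% in wild-type libraries. The background is the pooled non-conversion of cytosines with 10 reads or more and at 10% or less. The transcript values keep cytosines above 10%, which by itself raises them relative to the background. Alyref was highest, at 2.47%, 2.25% and 1.94% in Dnmt2-/- cells and 2.10%, 1.73% and 2.44% in wild-type cells, and the groups overlapped. All these values were above the background of their library, as were all those of Ybx1 and Nop2. With edgeR and Benjamini-Hochberg adjustment 0 of the 6 passed, adjusted p being 0.924 to 0.967, and 0.0123% of 8107 transcripts did; 0 of the 6 had an unadjusted p under 0.05, against 3.33% of all. Without Dnmt2-/- replicate 3, whose background was the lowest, 9.47% of transcripts were called higher in Dnmt2-/- cells, and none of the 6 was among them (adjusted p 0.110 to 0.445).

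Single cytosines with part of their reads unconverted were concentrated in Alyref. Among cytosines with 10 reads or more in every library, 36 of 1553 in these transcripts (2.32%) had a mean non-conversion of 5% or more, beside 1.10% of 741725 over all transcripts. Alyref held 26 of the 36, out of 228 cytosines (11.4%), Ybx1 6 of 323, Nop2 3 of 453 and Nsun2 1 of 479. Nsun4 and Nsun5 held 0 of 14 and 0 of 56, and Trdmt1, Nsun3 and Nsun6 had no cytosine at that depth. In Alyref 22 of the 26 lay between positions 81 and 234, near the 5′ end.

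Within that stretch of Alyref, pooled non-conversion was 4.90%, 4.93% and 3.66% in Dnmt2-/- libraries and 3.54%, 3.13% and 6.60% in wild-type libraries, over 56 cytosines. The groups overlapped, with means of 4.50% ± 0.726 in Dnmt2-/- cells and 4.42% ± 1.90 in wild-type cells (SD, n = 3 each; exact permutation test, two-sided p = 0.9). From position 240 on, the next covered cytosine, it was 2.23%, 1.94% and 1.68% in Dnmt2-/- libraries and 1.94%, 1.51% and 1.72% in wild-type libraries, lower than the 5′ stretch in all 6. Mean coverage of the 5′ stretch was 55.1 to 81.1 reads in Dnmt2-/- libraries and 34.6 to 110 reads in wild-type libraries. The stretch, a run of cytosines at 5% or more with gaps of at most 50 nt, was delimited after its values were seen. The lower values after it follow at least in part from that choice. Cytosines before position 81 are in neither region. Neighbouring cytosines share reads and are not independent of each other.

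The highest single cytosine was position 187 of Alyref, at 21.8%, 10.5% and 12.9% of 55, 38 and 62 reads in Dnmt2-/- cells and 8.89%, 14.0% and 29.2% of 45, 100 and 24 reads in wild-type cells. The groups overlapped, at 15.1% ± 5.95 in Dnmt2-/- cells and 17.4% ± 10.5 in wild-type cells (SD, n = 3 each; edgeR with Benjamini-Hochberg adjustment, adjusted p = 0.999). It was the only cytosine of the 9 transcripts to meet the rule for a methylated site, which asks for 10% or more in every library and an adjusted binomial p under 0.05, and it met it in Dnmt2-/- cells only. That is 1 of 1935 cytosines in Dnmt2-/- cells and 0 of 1569 in wild-type cells, beside 0.0283% of all cytosines tested in Dnmt2-/- cells and 0.0212% in wild-type cells. In wild-type cells it missed the 10% limit in replicate 1 alone, at 8.89%.

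**Figure D5:**
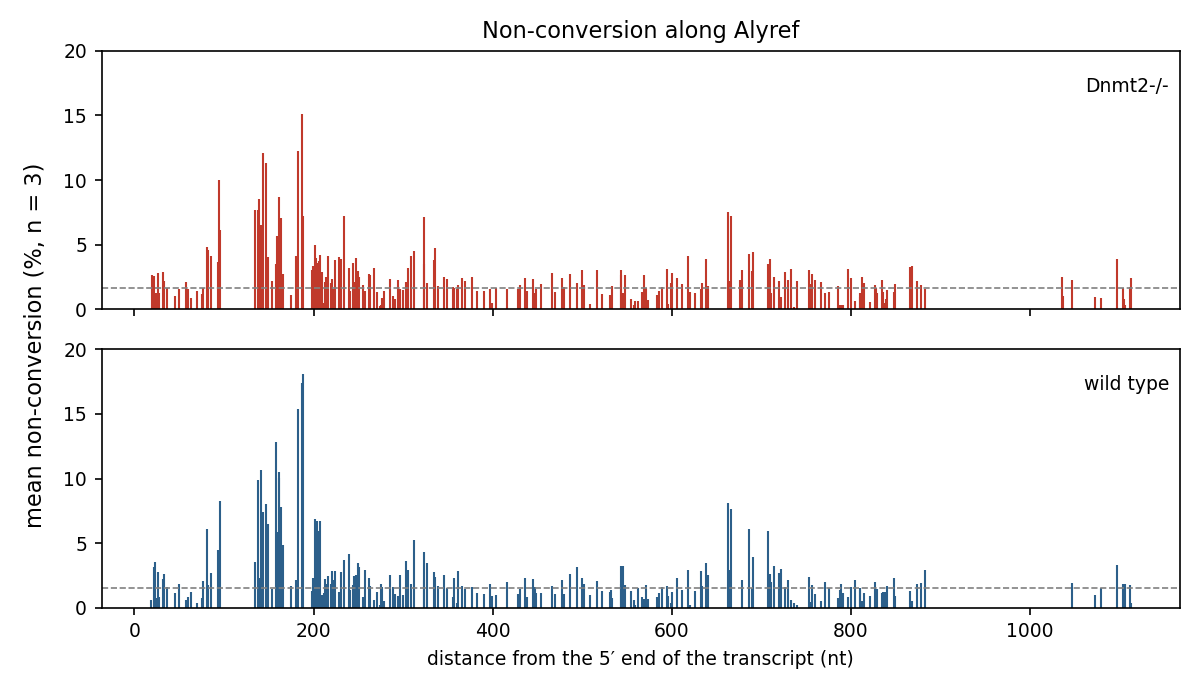
Mean non-conversion (%, n = 3 libraries) of each Alyref cytosine with 10 reads or more in every library, against its distance from the 5′ end (nt), Dnmt2-/- above wild type; dashed lines are the mean library background. In both genotypes the taller bars cluster between positions 81 and 234, with the cytosine at position 187 reaching 15.1% in Dnmt2-/- and 17.4% in wild type.

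Elsewhere the highest cytosines were lower. Position 65 of Nop2 was at 10.0% ± 6.67 in Dnmt2-/- cells and 2.82% ± 2.95 in wild-type cells (SD, n = 3 each, here and for the next 4). Position 245 of Ybx1 was at 5.17% ± 3.73 in Dnmt2-/- cells and 7.46% ± 5.33 in wild-type cells. Position 1385 of Nsun2 was at 1.99% ± 1.81 in Dnmt2-/- cells and 8.09% ± 8.83 in wild-type cells, whose mean rests on replicate 3, with 18.2% of 11 reads. The highest cytosines of the last pair of genes had a mean below the 5% minimum of the test. These were position 1301 of Nsun5, at 6.97% ± 0.833 in Dnmt2-/- cells and 1.39% ± 2.41 in wild-type cells, and position 642 of Nsun4, at 2.38% ± 4.12 in Dnmt2-/- cells and 2.22% ± 3.85 in wild-type cells. By mean percentage, 27 of the 36 cytosines at 5% or more were lower in Dnmt2-/- cells and 9 higher. That mean weighs the shallow wild-type replicate 3 as much as deeper libraries. Of the 36 cytosines 0 passed in edgeR with Benjamini-Hochberg adjustment (0.0% of 8193 over all transcripts), with negative log2 odds in that fit for 20 and positive ones for 16. An unadjusted p under 0.05 was reached by 2 of them, against 2.47% of all: position 209 of Ybx1, at 1.95% ± 1.92 in Dnmt2-/- cells and 8.34% ± 5.92 in wild-type cells, and position 94 of Alyref, at 9.99% ± 5.28 in Dnmt2-/- cells and 1.45% ± 1.36 in wild-type cells. Both are named because their count is small, after their values were seen.

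Genes that act beside these were compared through 4 lists, and 0 of their transcripts passed in the limma fit (0.0% of all transcripts did). Other m5C genes, which include the Tet dioxygenases that oxidise the base, had 16 transcripts of 12 genes tested, with a median log2 difference of -0.01 beside 0.03 over all transcripts; Nsun7 and Ang were not listed. In this list 0 transcripts had an unadjusted p under 0.05, and Tet1 came nearest, at 16.2 ± 1.66 in Dnmt2-/- cells and 13.1 ± 1.54 in wild-type cells (SD, n = 3 each; log2 difference 0.30, limma adjusted p = 0.791). Next was a transcript of Rnh1 (NM_001172100.1), the inhibitor of ribonucleases such as angiogenin, at 6.66 ± 1.51 in Dnmt2-/- cells and 4.68 ± 1.26 in wild-type cells. Its log2 difference was 0.47, while the other Rnh1 transcripts stood at 0.91 and -0.035. Srsf2, a splicing factor, had the highest level of the list, at 237 ± 44.6 in Dnmt2-/- cells and 263 ± 46.4 in wild-type cells.

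Of the other tRNA methyltransferases 25 transcripts were tested, with a median of 0.10 and 2 at an unadjusted p under 0.05 (7.11% of all transcripts were). These were Tarbp1, a ribose methyltransferase, at 8.55 ± 2.49 in Dnmt2-/- cells and 13.8 ± 3.39 in wild-type cells (limma adjusted p = 0.540), and a transcript of the guanosine methyltransferase Trmt1 (NM_198020.2) at 4.88 ± 1.58 in Dnmt2-/- cells and 8.24 ± 2.57 in wild-type cells (limma adjusted p = 0.669). Trmt6, a subunit of the enzyme for m1A in tRNA, was the most abundant of the list, at 17.5 ± 2.22 in Dnmt2-/- cells and 14.5 ± 2.04 in wild-type cells. Trmt61b was not listed.

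The mRNA export partners of Alyref had 15 transcripts tested, a median of -0.09 and 1 at an unadjusted p under 0.05, near the share of all transcripts; Chtop was not listed. It was Ddx39a, an RNA helicase of the export machinery, at 90.4, 88.5 and 98.4 in Dnmt2-/- cells and 132.8, 125.1 and 168.9 in wild-type cells. Every Dnmt2-/- value was below every wild-type value, as for 5.98% of all transcripts and 56.6% of those on chromosome 8, where Ddx39a lies. The log2 difference was -0.61 (SE 0.146; limma unadjusted p = 0.00329, adjusted p = 0.370). The better covered transcript of Thoc7, of the same export complex, was at 11.3 ± 3.42 in Dnmt2-/- cells and 15.4 ± 3.90 in wild-type cells. Its groups overlapped (SD, n = 3 each; limma adjusted p = 0.871). The other Thoc7 transcript was at 1.95 in Dnmt2-/- cells and 1.97 in wild-type cells. The nucleolar partners of Nop2 had 19 transcripts tested, a median of -0.02 and 0 at an unadjusted p under 0.05. Fbl, the methyltransferase of box C/D particles, was the most abundant at 176 ± 13.9 in Dnmt2-/- cells and 180 ± 31.5 in wild-type cells, and the smallest p-values were those of Ncl, a nucleolar chaperone, at 89.6 in Dnmt2-/- cells and 105 in wild-type cells, and of 1 of the 3 transcripts of the assembly factor Wdr12 (NM_021312.5), at 8.74 in Dnmt2-/- cells and 7.31 in wild-type cells (means of 3).

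The 3 transcripts of these lists with an unadjusted p under 0.05, of Ddx39a, Tarbp1 and Trmt1, all lie on chromosome 8, which holds 4 of the 75 list transcripts tested. Coverage of that chromosome was lower as a whole in Dnmt2-/- cells: the median log2 difference of its 610 tested transcripts was -0.51, with 92.0% below 0 and 53.6% at an unadjusted p under 0.05. The other 19 chromosomes with 100 or more tested transcripts had medians between 0.02 and 0.09. None of the 9 m5C genes is on chromosome 8. The differences of Ddx39a (-0.61), Tarbp1 (-0.67) and this transcript of Trmt1 (-0.70) thus stood beside a shift of the same sign in most transcripts of their chromosome, whose part in them was not tested. The other tested transcript of Trmt1 differed by only -0.13, at 6.61 ± 2.15 in Dnmt2-/- cells and 7.14 ± 1.55 in wild-type cells (SD, n = 3 each). The chromosome was looked at after the values of these genes were seen.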

How the data were processed

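Bisulfite libraries of the rRNA-depleted long RNA were analysed (3 Dnmt2-/-, 3 wild type). Per the file headers, the deposited files give for each listed cytosine its coverage, a count of reads, and the unconversion ratio, a fraction of these reads. BSMAP and mm9 are named in the submitters' processing notes; software versions and filters were not given in the sources used here. In all 20824445 entries coverage times ratio lay within the tolerance of 0.01 of a whole number, so non-converted counts were recovered. Of the references, 15235 of 15330 matched a symbol in a RefSeq gene table of GRCm38.p6, used for names and chromosomes; positions count from 1 at the 5′ end.

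The members and lists were chosen with earlier results of these data known. Named were all 9 genes, from each list any transcript that passed, otherwise those with the 2 smallest p and the highest level, and for each gene the highest cytosine and any called methylated. Coverage was averaged over the cytosines listed in any library (unlisted as 0), scaled by TMM factors (edgeR 4.0.16), filtered at a mean of 1, and tested with limma 3.58.1 (trend) in R 4.3.3 on log2 of the value plus 0.5, which understates changes of low transcripts. The profile test needed 10 cytosines on each side of the middle. Non-conversion was tested with the edgeR quasi-likelihood test on the counts of both states, with library terms and a genotype-by-state interaction; every library needed a summed coverage of at least 100 for a transcript, or at least 10 reads for a cytosine, whose mean had to reach 5%. The threshold was a Benjamini-Hochberg adjusted p under 0.05. DESeq2 1.42.0 was an alternative. Methylated sites were called by one-sided exact binomial tests against the library background, combined by Fisher's method. Reads carry no molecular identifiers and are not independent molecules.

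Summed coverage was 37786723 (wild-type replicate 3) to 143488903 (wild-type replicate 2) and its median per listed cytosine 6 to 11 reads. Every pair of libraries of a genotype differed by more than counting error. In data simulated at the mean levels of these libraries, the coverage test recovered 12 of 100 transcripts changed 2-fold and 73 of 100 changed 4-fold, over 10949 transcripts. The spread was a fixed setting, not taken from the replicates. Only transcripts with more coverage than Trdmt1, Nsun3 and Nsun6 were changed, so these rates do not apply to those genes.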

Additional observations from a re-analysis of the deposited data

How the results depend on the processing

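Depth is the main limit: Trdmt1, Nsun3 and Nsun6 had no cytosine with 10 reads in every library, and wild-type replicate 3 was the shallowest. Of 0 transcripts called in coverage, 3 were called with unlisted cytosines at 2 reads (2 higher, 1 lower in Dnmt2-/-), 0 to 1 without 1 library and 232 by DESeq2 on summed coverage (45 higher, 187 lower, of 8187); Trdmt1 was the only one of the 8 called there. Its log2 difference lay between -1.75 and -1.30 without 1 library. Transcripts called for non-conversion (1) were 0 at a summed coverage of 1000 or more, 0 over cytosines with 10 reads or more only, 0 with the replicate block, and 0 to 770 without 1 library, the highest being without Dnmt2-/- replicate 3. Cytosines called (0) were 0 to 1 without 1 library and 27 when counts were pooled by genotype for Fisher's exact test, so that replicate spread was not used. Methylated sites in the 9 transcripts were 1 in Dnmt2-/- cells, 0 at a limit of 20% and 1 to 3 without 1 library, and 0 in wild-type cells, 0 to 2 without 1 library. With unlisted cytosines at 2 reads, 3 of 8 neighbouring pairs of levels were apart in place of 5.

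Of the differences that changed sign, 0 passed. In coverage, with unlisted cytosines at 2 reads, Alyref became 0.11 and Nsun3 -0.053; without 1 library Nop2 ranged from -0.036 to 0.18 and Nsun2 from -0.0033 to 0.15. In the profile, unlisted cytosines at 2 reads gave -0.13 for Nsun4 and 0.22 for Trdmt1, and for Trdmt1 a pseudocount of 2 gave 0.25 and one of 0.1 gave -1.88. Without both replicate 3 libraries the profile was -0.045 for Alyref, 0.86 for Nsun3 and -0.32 for Nsun4. Without 1 library it was -0.0087 to 0.089 for Alyref, -0.11 to 0.068 for Nop2, -0.91 to 0.40 for Nsun3, -0.24 to 0.25 for Nsun4 and -0.19 to 0.086 for Ybx1. In non-conversion, as log2 odds, the ranges without 1 library were -0.029 to 0.22 for Alyref, -0.0079 to 0.19 for Nop2, -0.058 to 0.19 for Nsun2, -0.089 to 0.27 for Nsun4 and -0.054 to 0.12 for Ybx1. Of the other alternatives for single genes and cytosines, 279 kept their direction and side of the threshold and 1 moved past it. The causes were not tested.

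The replicate numbers paired the libraries in part: deviations of same-numbered libraries correlated at 0.139, 0.0404 and 0.304. Dnmt2-/- replicates 1 and 3 correlated best with the wild-type library of the same number, and Dnmt2-/- replicate 2 with wild-type replicate 1. Dnmt2-/- replicate 3 correlated at -0.291 and -0.112 with wild-type replicates 1 and 2, so the replicate 3 libraries shared deviations across genotypes. With the replicate block 0 transcripts passed in coverage and 0 in the profile, and 0 cytosines in non-conversion.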
